A study of Mus musculus with 11 samples.

Results

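The genes described here set the level of retinoic acid in the heart and read it out: Stra6, Rdh10, Dhrs3, Aldh1a1, Aldh1a2, Cyp26b1 and the receptors Rara, Rarb and Rarg. They were found by matching the Ensembl identifiers of the heart count table, without version, to these 9 symbols in GENCODE mouse release M21. All 9 were present among 22608 genes, and 8 of them, all but Stra6, were among the 11319 genes whose average log2 CPM reached 1. CPM stands for counts divided by the size of the library, so that hearts sequenced to different depths can be compared. Cyp26b1 was chosen by its own values, namely the size of its difference between CD JZL184 and CD VEH hearts and its spread among CD VEH mice, so its levels are described with no test. The other 8 genes were chosen by their role around it.

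Heart RNA was sequenced from 11 males, 8 to 16 weeks old. CD mice carry a heterozygous deletion of the interval from Gtf2i to Fkbp6 that models Williams-Beuren syndrome, and WT mice were their littermates on the same C57BL/6J background. Mice received JZL184, an inhibitor of the enzyme monoacylglycerol lipase, at 8 mg/kg or vehicle (VEH) for 10 days, with 3 CD JZL184, 3 CD VEH, 3 WT JZL184 and 2 WT VEH hearts, and the study's design text calls the VEH groups non-treated. Mice are named here by group and by the letter in the count table. The model deletes many genes at the same time, RNA of heart tissue mixes many cell types, and dose, duration, sex and age come from the study's methods rather than from the sample labels.

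Total estimated counts lay between 69660232 and 92251443 per heart, and 3 counts in a library corresponded to 0.0306 to 0.0435 CPM. All 14 tested genes of the deleted interval were downregulated in CD VEH versus WT VEH (median log2 fold change -1.01) and in CD JZL184 versus WT JZL184 (median -0.91). The share of counts from the mitochondrial genome was between 36.4% and 46.6%. It was 45.0 to 46.6% in WT JZL184 and 43.5 to 44.7% in CD VEH hearts, against 39.4 to 41.2% in WT VEH and 36.4 to 40.1% in CD JZL184 hearts. Cardiomyocyte markers (Myh6, Tnnt2, Actc1, Myl2 and Ryr2) summed to between 25118 and 35853 CPM. The atrial genes Myl7, Sln and Bmp10 did not pass 0.521 CPM in any heart. Myl4 lay between 0.794 and 1.69 CPM and Nppa between 49.2 and 220.2 CPM. Haemoglobin and other erythroid genes summed to 18832 CPM in CD VEH mouse A and to between 1419 and 5512 CPM in the other hearts.

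Retinoic acid is made from vitamin A in successive oxidations. Cells take up retinol through the receptor STRA6, RDH10 oxidizes retinol to retinaldehyde, DHRS3 reduces retinaldehyde back to retinol, and the dehydrogenases ALDH1A1 and ALDH1A2 oxidize retinaldehyde to retinoic acid. Enzymes of the CYP26 family, CYP26B1 among them, hydroxylate retinoic acid and so clear it. Retinoic acid binds the nuclear receptors RARα, RARβ and RARγ, which pair with retinoid X receptors on direct repeats in DNA, and in many cells it induces Rarb, Cyp26 genes and Dhrs3, so that the pathway regulates itself. In the developing heart, the epicardium is a known site of Aldh1a2 expression.

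The promoters of Cyp26b1, Dhrs3 and Rarb are shown because the first pair had the closest levels across mice (below), and because Rarb holds the textbook response element of this pathway. RefSeq had promoter windows for 8 of the 9 genes, 18 windows in all, each running from 250 bases before to 50 bases after a transcript start. Both strands were searched for direct repeats of the units GGTCA or GTTCA with 6 bases between the units (DR5) or 3 bases between them (DR2). In the sequences below (GRCm38.p6, 5′ to 3′ on the strand of the gene), capitals mark a match.
Rarb, chr14:16575427-16575726, minus strand: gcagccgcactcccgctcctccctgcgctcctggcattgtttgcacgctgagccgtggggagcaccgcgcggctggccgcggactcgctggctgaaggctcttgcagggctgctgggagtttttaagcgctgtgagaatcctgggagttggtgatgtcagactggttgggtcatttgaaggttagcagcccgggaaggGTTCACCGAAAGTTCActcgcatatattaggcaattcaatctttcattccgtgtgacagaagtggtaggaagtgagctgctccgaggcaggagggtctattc
Cyp26b1, chr6:84593761-84594060, minus strand: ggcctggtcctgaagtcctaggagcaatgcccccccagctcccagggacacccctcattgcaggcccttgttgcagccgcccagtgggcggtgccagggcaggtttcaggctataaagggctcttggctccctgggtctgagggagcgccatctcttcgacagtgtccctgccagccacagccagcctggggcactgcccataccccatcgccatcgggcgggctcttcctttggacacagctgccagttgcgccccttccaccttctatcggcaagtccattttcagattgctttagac
Dhrs3, chr4:144892577-144892876, plus strand: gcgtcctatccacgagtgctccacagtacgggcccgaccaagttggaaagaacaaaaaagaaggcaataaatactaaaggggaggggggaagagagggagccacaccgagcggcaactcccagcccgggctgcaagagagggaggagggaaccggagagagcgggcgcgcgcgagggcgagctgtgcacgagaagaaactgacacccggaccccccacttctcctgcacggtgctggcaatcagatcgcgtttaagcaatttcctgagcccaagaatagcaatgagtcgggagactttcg
The single match in the 18 windows was a DR5, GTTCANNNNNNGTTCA, in the Rarb promoter at positions -52 to -37 from the transcript start. DR5 repeats were present in 81 of 32851 promoter windows of the mouse table (0.247%) and DR2 repeats in 131 (0.399%). The Cyp26b1 window and the Dhrs3 windows held neither set of letters, which says nothing of sites outside these windows.

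Per kilobase of exon, Dhrs3 was the most abundant of the 9 transcripts, with a mean of 15.6 CPM per kb over the 11 hearts and a range of 12.3 to 17.8. Rarg (mean 4.20 CPM per kb), Aldh1a1 (3.22), Cyp26b1 (2.73), Rarb (2.34), Aldh1a2 (1.49), Rara (1.39) and Rdh10 (1.13) followed, and Stra6 had 0.0258 CPM per kb. The ranges of neighbours in this order overlapped over the 11 hearts, except for Dhrs3 above Rarg and Rdh10 above Stra6. Within each single heart, Rarg also exceeded Aldh1a1, Rarb exceeded Aldh1a2 and Rara exceeded Rdh10. Cyp26b1 covered the widest range among the tested members, from 0.441 to 9.02 CPM per kb, and so crossed most of this order from heart to heart. The closest relatives of Cyp26b1 were nearly absent: Cyp26a1 had at most 0.0869 CPM and Cyp26c1 at most 0.0724 CPM in any heart.

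Cyp26b1 (ENSMUSG00000063415.12, chromosome 6, 84571414 to 84593908, minus strand of GRCm38) had 2.36 CPM in WT VEH mouse C and 12.7 CPM in WT VEH mouse D. In WT JZL184 hearts it had 24.6 CPM in mouse A, 17.4 in mouse B and 17.4 in mouse D. CD VEH hearts had 15.5 CPM in mouse A, 48.3 in mouse C and 10.8 in mouse E. The pair of WT VEH mice thus differed 5.36-fold and the CD VEH mice up to 4.49-fold, while the WT JZL184 mice lay within 1.41-fold of each other. CD JZL184 hearts had 2.76 CPM in mouse A, 6.40 in mouse C and 2.75 in mouse E, all below every CD VEH and WT JZL184 heart. These values rest on 163 to 3933 counts per heart.

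Group means of Cyp26b1 were 7.51 ± 7.29 CPM in WT VEH (SD, n = 2), 19.8 ± 4.14 in WT JZL184 (SD, n = 3), 24.8 ± 20.4 in CD VEH (SD, n = 3) and 3.97 ± 2.11 in CD JZL184 (SD, n = 3). The fitted log2 fold change, untested for this gene, was -2.63 for CD JZL184 versus CD VEH and -1.71 when CD VEH mouse C was left out. Without CD VEH mouse A, the heart rich in erythroid RNA, it was -2.88. It was 1.38 for WT JZL184 versus WT VEH, with 0.64 when WT VEH mouse C was left out and 3.06 when mouse D was left out. For CD VEH versus WT VEH it was 1.71, and 0.78 without CD VEH mouse C, 0.97 without WT VEH mouse C and 3.39 without WT VEH mouse D. In that comparison alone the groups overlapped. For CD JZL184 versus WT JZL184 the log2 fold change was -2.31, with a range of -2.84 to -2.10 over 18 other settings and left-out mice.

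Within groups, the SD of log2 CPM of Cyp26b1 was 0.97, against a median of 0.103 over the 11319 genes, and 13 genes had a larger one. Aldh1a2 followed among the members with 0.283, a value above that of 96.8% of the genes, and the remaining 6 tested members lay between 0.0950 (Rdh10) and 0.182 (Rarb).

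**Figure D1:**
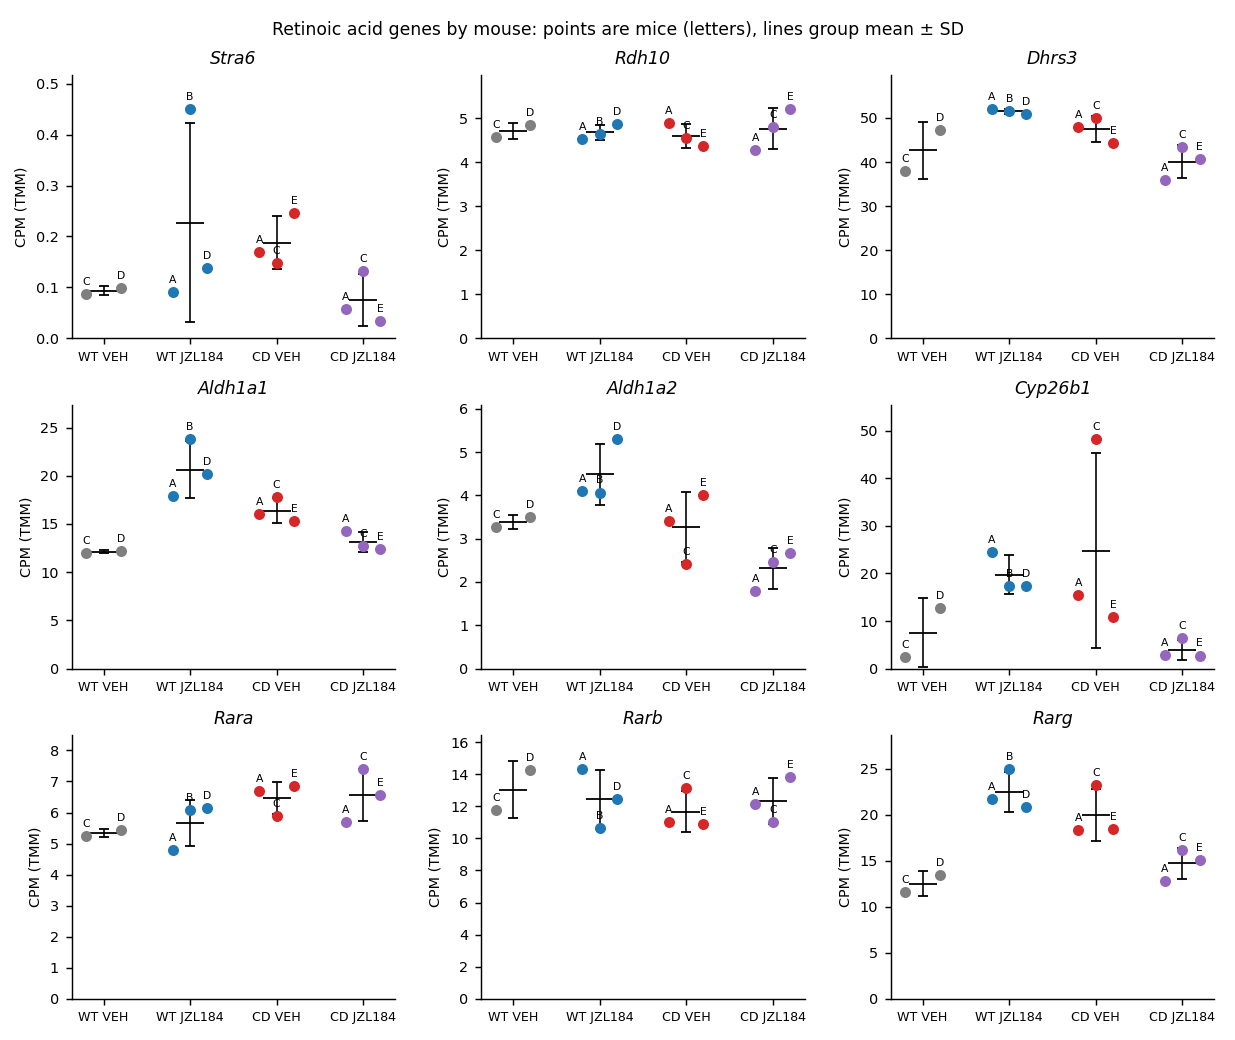
Level of each of the 9 genes in CPM (TMM scaling, linear axes from 0), with 1 point per heart and the letter of the mouse, and lines for the group mean ± SD (n = 2 for WT VEH, n = 3 otherwise). Cyp26b1 ranges from 2.36 to 48.3 CPM, whereas Rdh10 stays between 4.27 and 5.21 CPM.

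The first steps of the pathway were barely measurable or passed no test. Stra6, the retinol uptake receptor (chromosome 9), had 3 to 32 counts per heart, or 0.0345 to 0.450 CPM, and the lowest heart was at the 3 counts taken as the limit of detection. The highest value was that of WT JZL184 mouse B, and no fold change is given at this depth. Rdh10 (chromosome 1), the enzyme that commits retinol to this pathway, had 4.71 ± 0.188 CPM in WT VEH (SD, n = 2), 4.68 ± 0.167 in WT JZL184, 4.60 ± 0.271 in CD VEH and 4.76 ± 0.467 in CD JZL184 (SD, n = 3 each). Its groups overlapped in all comparisons, its log2 fold changes lay between -0.03 and 0.06 with standard errors of 0.0932 to 0.141, and its sign in 4 comparisons and in the interaction depended on the scaling or on single mice.

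Dhrs3 (ENSMUSG00000066026.14, chromosome 4, 144892827 to 144928209, plus strand), the reductase that returns retinaldehyde to retinol, had 38.1 and 47.3 CPM in WT VEH mice C and D. WT JZL184 hearts had 52.0, 51.6 and 50.8 CPM in mice A, B and D, above every other group. CD VEH hearts had 48.0, 50.1 and 44.4 CPM in mice A, C and E, and CD JZL184 hearts had 36.0, 43.5 and 40.7 CPM in mice A, C and E. By group mean, Dhrs3 was lowest in CD JZL184 hearts, as was Cyp26b1, but the lowest single heart was CD JZL184 mouse A for Dhrs3 and WT VEH mouse C for Cyp26b1. The whole range of Dhrs3 was 1.45-fold against 20.4-fold for Cyp26b1.

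Dhrs3 was downregulated in CD JZL184 versus WT JZL184 (-0.36 on the log2 scale, SE 0.0879, edgeR adjusted p = 0.00821) and, marginally, in CD JZL184 versus CD VEH (-0.24, SE 0.0878, edgeR adjusted p = 0.0492). The latter call was lost in 12 of 18 alternatives, among them RLE scaling (edgeR adjusted p = 0.0520) and leaving out CD JZL184 mouse A (0.182) or CD VEH mouse C (0.138). Its difference in WT JZL184 versus WT VEH was 0.27 (SE 0.0989, edgeR adjusted p = 0.0586) and passed the threshold in 4 of 18 alternatives, DESeq2 (adjusted p = 0.0341) and the fit without WT VEH mouse D (0.0383) among them. In CD VEH versus WT VEH it was 0.15 (SE 0.0986, edgeR adjusted p = 0.250).

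Aldh1a1 (ENSMUSG00000053279.6, chromosome 19, 20492715 to 20643465, plus strand), which oxidizes retinaldehyde to retinoic acid, had 12.0 and 12.2 CPM in WT VEH mice C and D. WT JZL184 hearts had 17.9, 23.8 and 20.2 CPM in mice A, B and D, CD VEH hearts had 16.1, 17.8 and 15.3 CPM in mice A, C and E, and CD JZL184 hearts had 14.2, 12.8 and 12.4 CPM in mice A, C and E. The groups did not overlap in any of the 4 comparisons, and the order from high to low was WT JZL184, CD VEH, CD JZL184 and WT VEH, with neighbours close to each other.

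Aldh1a1 was upregulated in CD VEH versus WT VEH (0.44 on the log2 scale, SE 0.113, edgeR adjusted p = 0.0155) and in WT JZL184 versus WT VEH (0.77, SE 0.114, edgeR adjusted p = 0.00222). It was downregulated in CD JZL184 versus CD VEH (-0.32, SE 0.0992, edgeR adjusted p = 0.0286) and in CD JZL184 versus WT JZL184 (-0.65, SE 0.0991, edgeR adjusted p = 0.00110). The call in CD VEH versus WT VEH was lost without WT VEH mouse C (edgeR adjusted p = 0.102) or D (0.0780). The call in CD JZL184 versus CD VEH was lost without CD JZL184 mouse C (0.0765) or E (0.104) and without CD VEH mouse A (0.0714) or C (0.100), while those of the remaining pair of comparisons held in all 18 alternatives.

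Aldh1a2 (ENSMUSG00000013584.5, chromosome 9, 71215789 to 71296243, plus strand), the dehydrogenase that makes most retinoic acid in the embryo, was less abundant. It had 3.27 and 3.50 CPM in WT VEH mice C and D, 4.10, 4.07 and 5.30 CPM in WT JZL184 mice A, B and D, 3.40, 2.40 and 4.02 CPM in CD VEH mice A, C and E, and 1.79, 2.47 and 2.68 CPM in CD JZL184 mice A, C and E. CD VEH mouse C, which had the highest Cyp26b1 of all hearts, had the lowest Aldh1a2 of its group. The WT JZL184 and CD JZL184 hearts did not overlap, and between these groups Aldh1a2 was downregulated in CD mice (-0.96 on the log2 scale, SE 0.195, edgeR adjusted p = 0.00353), a call that held in all 18 alternatives.

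The difference of Aldh1a2 in CD JZL184 versus CD VEH was -0.50 (SE 0.196, edgeR adjusted p = 0.0675), with overlapping groups, and passed the threshold with DESeq2 (adjusted p = 0.0392) or without CD VEH mouse C (edgeR adjusted p = 0.0165). In WT JZL184 versus WT VEH it was 0.41 (SE 0.217, edgeR adjusted p = 0.171) and in CD VEH versus WT VEH -0.05 (SE 0.217, edgeR adjusted p = 0.877). Of 8 markers of epicardium and mesothelium, 6 were below 1 CPM in every heart and Wt1 alone was abundant enough to be tested. Their summed level was 3.20 to 3.72 CPM in WT VEH, 3.18 to 5.43 in WT JZL184, 3.15 to 5.01 in CD VEH and 2.35 to 4.27 in CD JZL184 hearts, and Wt1 was downregulated (edgeR adjusted p under 0.05) in CD JZL184 hearts, by a log2 fold change of -0.42 relative to CD VEH and -0.67 relative to WT JZL184. The part of these cells in the Aldh1a2 result was not tested. In RNA of mixed cells, fewer cells of a type and less RNA per cell cannot be told apart.

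Among the receptors, Rarg (ENSMUSG00000001288.14, chromosome 15, 102234938 to 102257517, minus strand) was the one that changed. It had 11.6 and 13.5 CPM in WT VEH mice C and D, 21.7, 25.0 and 20.9 CPM in WT JZL184 mice A, B and D, 18.3, 23.3 and 18.4 CPM in CD VEH mice A, C and E, and 12.8, 16.2 and 15.1 CPM in CD JZL184 mice A, C and E. The groups did not overlap in any of the 4 comparisons. WT JZL184 and CD VEH hearts overlapped with each other, as did CD JZL184 and WT VEH hearts.

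Rarg was upregulated in CD VEH versus WT VEH (0.67 on the log2 scale, SE 0.134, edgeR adjusted p = 0.00578) and in WT JZL184 versus WT VEH (0.84, SE 0.134, edgeR adjusted p = 0.00264). It was downregulated in CD JZL184 versus CD VEH (-0.44, SE 0.116, edgeR adjusted p = 0.0147) and in CD JZL184 versus WT JZL184 (-0.61, SE 0.116, edgeR adjusted p = 0.00259). Without WT VEH mouse C the first of these calls was lost (edgeR adjusted p = 0.0690), as was the call against CD VEH without CD JZL184 mouse A (0.0589).

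Rara (chromosome 11) had between 4.79 and 7.39 CPM and Rarb (chromosome 14) between 10.6 and 14.3 CPM over the 11 hearts. Neither passed the test in any comparison. The largest difference of Rara was 0.28 in CD VEH versus WT VEH (SE 0.134, edgeR adjusted p = 0.131), where the groups did not overlap, and that of Rarb was -0.16 in the same comparison (SE 0.139, edgeR adjusted p = 0.393). Rarb, whose promoter above holds the DR5 repeat, did not pass the test in either direction and had a sign that depended on single mice in 3 comparisons and in the interaction. It shares 1793 bases of exon with Top2b on the opposite strand, a gene with up to 67.7 CPM, and 227 bases with Gm48162. Whether counting used the strand is not given in the sources used here, so reads of these stretches cannot be told apart.

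**Figure D2:**
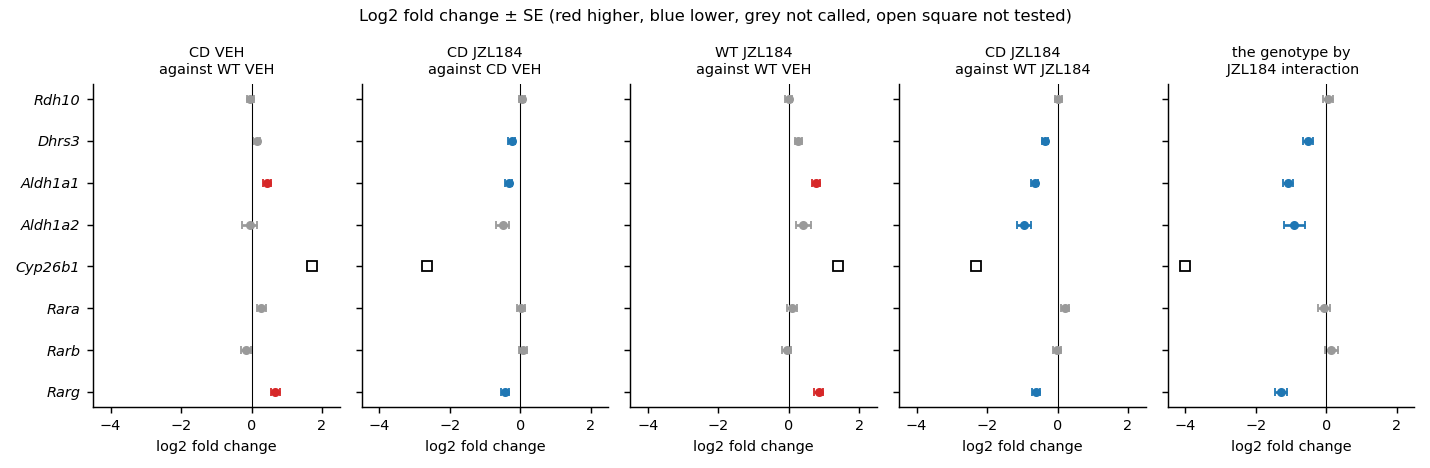
Log2 fold change with its SE (horizontal axis) of the 8 genes above the expression limit in the 4 comparisons and in the genotype by JZL184 interaction, from edgeR over 11 hearts. Red points were higher and blue points lower at an adjusted p under 0.05, grey points were not called, and the open square is Cyp26b1, which was not tested. Aldh1a1 and Rarg are red in both comparisons with WT VEH and blue in both comparisons of CD JZL184 hearts.

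Counted over the 7 tested genes other than Cyp26b1, 2 were upregulated and 0 downregulated in CD VEH versus WT VEH (edgeR adjusted p under 0.05), where 15.0% of all genes were upregulated and 15.4% downregulated. In CD JZL184 versus CD VEH, 0 rose and 3 fell, against 16.8% and 17.0% of all genes. WT JZL184 versus WT VEH had 2 upregulated and 0 downregulated genes, against 15.4% and 14.0% of all genes. CD JZL184 versus WT JZL184 had 0 upregulated and 4 downregulated genes, against 18.2% and 20.1%. At an unadjusted p under 0.05 or with DESeq2 the counts were 2 higher, 4 lower, 3 higher and 4 lower in the same order, and again 0 in the opposite direction. The shares of all genes higher and lower at an unadjusted p under 0.05 were 21.9% and 21.8% in CD VEH versus WT VEH, 22.9% and 23.1% in CD JZL184 versus CD VEH, 21.7% and 21.0% in WT JZL184 versus WT VEH, and 23.1% and 25.5% in CD JZL184 versus WT JZL184. With DESeq2 they were 16.9% and 17.7%, 19.0% and 18.5%, 17.6% and 15.6%, and 19.5% and 21.9% in the same order. With 7 genes these counts are small, and the called genes were in each case drawn from Aldh1a1, Rarg, Dhrs3 and Aldh1a2. The median log2 fold changes of the 7 genes were 0.15, -0.24, 0.27 and -0.36 in the same order of comparisons, while those of all genes lay between -0.01 and 0.01. The comparisons share hearts: both with WT VEH use the same 2 mice, and both of CD JZL184 use the same 3. CD VEH hearts enter CD VEH versus WT VEH and CD JZL184 versus CD VEH with opposite sign. WT JZL184 hearts likewise enter WT JZL184 versus WT VEH and CD JZL184 versus WT JZL184 with opposite sign. For any gene, a rise in the former and a fall in the latter of such a pair are therefore not independent. Without WT VEH mouse C the number of all genes called in CD VEH versus WT VEH fell from 3440 to 385 and in WT JZL184 versus WT VEH from 3332 to 558, and without mouse D to 1217 and 1031, so the comparisons with WT VEH rest on both of these hearts.

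The effect of JZL184 differed between genotypes for 4 of the 7 genes. In the genotype by JZL184 interaction, the log2 effect in CD minus that in WT was -1.29 for Rarg (SE 0.177, edgeR adjusted p = 0.000268), -1.09 for Aldh1a1 (SE 0.151, edgeR adjusted p = 0.000272), -0.91 for Aldh1a2 (SE 0.293, edgeR adjusted p = 0.0218) and -0.52 for Dhrs3 (SE 0.132, edgeR adjusted p = 0.00708). For Aldh1a2 the call was lost in 4 of 17 alternatives, which were the fits without CD VEH mouse E (edgeR adjusted p = 0.0549), WT JZL184 mouse D (0.0530), WT VEH mouse C (0.0761) or WT VEH mouse D (0.0548). Rdh10, Rara and Rarb did not pass. Over all genes, 25.3% were called higher and 26.2% lower in this interaction, so a difference between genotypes was common in these hearts. The JZL184 effects in CD and in WT, which have no mouse in common, had opposite signs for 6 of the 7 genes (85.7%) and for 83.1% of the 11319 genes. For Cyp26b1 the interaction was -4.01, ranging from -5.70 to -3.09 over 17 alternatives, with no test.

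Endothelial, macrophage and fibroblast markers were called in the directions of Aldh1a1 and Rarg, while several other marker lists were mixed or not called. Some of the latter had few genes above the expression limit. Of all genes, 14.0% to 20.1% were called in each direction of the 4 comparisons. The 5 endothelial markers (Pecam1, Cdh5, Kdr, Tie1 and Emcn) summed to 484 to 491 CPM in WT VEH, 744 to 767 in WT JZL184, 619 to 685 in CD VEH and 477 to 560 in CD JZL184 hearts. Of these 5 genes, 4 were upregulated in CD VEH versus WT VEH, 5 upregulated in WT JZL184 versus WT VEH, 4 downregulated in CD JZL184 versus CD VEH and 5 downregulated in CD JZL184 versus WT JZL184. All 4 macrophage markers were called in the same directions in all 4 comparisons, with a summed level of 74.7 to 79.2 CPM in WT VEH, 95.7 to 156 in WT JZL184, 101 to 125 in CD VEH and 69.1 to 78.5 in CD JZL184 hearts. Of 6 fibroblast markers, 3 or 4 were called per comparison, again in these directions. Cardiomyocyte markers had 0 of 5 genes upregulated and 2 downregulated in each comparison with WT VEH, and 2 upregulated and 1 downregulated in each comparison of CD JZL184 hearts. Of 5 smooth muscle and pericyte markers, 3 were upregulated and 1 downregulated in CD VEH versus WT VEH, 3 and 0 in WT JZL184 versus WT VEH, 1 and 3 in CD JZL184 versus CD VEH, and 0 and 4 in CD JZL184 versus WT JZL184. The capillary and adipocyte gene Fabp4 was called in the directions of the endothelial markers in all 4 comparisons, while Adipoq and Plin1 did not pass 0.356 CPM. The adipocyte gene Cfd, also below the expression limit, had 0.0372 to 0.0435 CPM in WT VEH and 0.0651 to 0.242 in WT JZL184 hearts. It had 0.317 to 1.09 CPM in CD VEH and 0.0937 to 0.747 in CD JZL184 hearts. No endocardial (4 of 4 tested), atrial (1 of 5 tested) or Schwann cell marker (2 of 4 tested) was called in the 4 comparisons. Of 6 valve markers 2 were tested, and 1 was called in each of 2 comparisons. The 5 erythroid genes were downregulated in CD JZL184 versus CD VEH only. Lymphoid, skeletal muscle and lung epithelial markers were all below the expression limit. The part of these cells, and of the mitochondrial share given above, in the results of the retinoic acid genes was not tested. Library sizes without mitochondrial genes changed 1 call of the 7 genes, that of Dhrs3 in CD JZL184 versus CD VEH (edgeR adjusted p = 0.0511).

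The wider retinoid system was described with 7 lists holding 45 genes, of which 25 were tested besides Cyp26b1. Of these 25, 5 were upregulated and 5 downregulated in CD VEH versus WT VEH, 4 and 6 in CD JZL184 versus CD VEH, 5 and 5 in WT JZL184 versus WT VEH, and 3 and 8 in CD JZL184 versus WT JZL184. Of all genes, 14.0% to 20.1% were called in each direction of these comparisons, a background close to most of these counts. The median log2 fold change over the lists lay between -0.04 and 0.03, close to that of all genes.

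Both tested carriers of retinoids were called in the directions of Rarg and Aldh1a1, in which 15.0% to 20.1% of all genes were called. With 2 genes this count is small. Of 8 genes for uptake, binding and storage, 2 were tested: Rbp7, a retinol-binding protein of capillary endothelium and fat, and Fabp5, which binds fatty acids and retinoic acid. Rbp7 had 9.19 ± 0.372 CPM in WT VEH (SD, n = 2), 17.1 ± 5.17 in WT JZL184, 16.1 ± 0.734 in CD VEH and 8.47 ± 1.97 in CD JZL184 (SD, n = 3 each). It was upregulated in CD VEH versus WT VEH (0.81 on the log2 scale, SE 0.221, edgeR adjusted p = 0.0187) and downregulated in CD JZL184 versus CD VEH (-0.93, SE 0.193, edgeR adjusted p = 0.00553). Fabp5 rose in the former (0.82, SE 0.186, edgeR adjusted p = 0.00921) and fell in the latter (-0.75, SE 0.162, edgeR adjusted p = 0.00642). Both were also upregulated in WT JZL184 versus WT VEH and downregulated in CD JZL184 versus WT JZL184. In CD VEH versus WT VEH, the call of Rbp7 was lost without WT VEH mouse C (edgeR adjusted p = 0.120), WT VEH mouse D (0.0856) or CD VEH mouse A (0.0528), and that of Fabp5 without WT VEH mouse C (0.0723) or D (0.0616). In WT JZL184 versus WT VEH both calls were lost without either WT VEH mouse, and that of Fabp5 also without WT JZL184 mouse B (0.0769) or D (0.0735). The call of Fabp5 in CD JZL184 versus WT JZL184 was lost in 4 of 18 alternatives. Endothelial markers, given above, moved in the same directions as Rbp7.

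Of 12 retinol and retinaldehyde oxidoreductases, 9 were tested, Dhrs3 among them. Of these 9, 1 was upregulated and 1 downregulated in each comparison with WT VEH, 0 and 2 in each comparison of CD JZL184 hearts, and 1 was higher and 3 lower in the interaction, against the shares of all genes given above for the 7 genes. Rdh11, a retinaldehyde reductase, had 3.28 ± 0.215 CPM in WT VEH (SD, n = 2), 4.94 ± 0.671 in WT JZL184, 4.95 ± 0.277 in CD VEH and 3.69 ± 0.144 in CD JZL184 (SD, n = 3 each). It was upregulated in CD VEH versus WT VEH (0.59 on the log2 scale, SE 0.122, edgeR adjusted p = 0.00660) and downregulated in CD JZL184 versus CD VEH (-0.42, SE 0.106, edgeR adjusted p = 0.0121). The former call was lost without WT VEH mouse C (log2 fold change 0.66) or D (0.53). The latter call was lost without CD VEH mouse E (edgeR adjusted p = 0.0555). Rdh11 was also upregulated in WT JZL184 versus WT VEH (0.59, edgeR adjusted p = 0.00686). That call was lost without WT VEH mouse D (log2 fold change 0.52). Dhrs4, which also reduces retinal, was slightly downregulated in both comparisons with WT VEH (-0.25 in CD VEH, edgeR adjusted p = 0.0425). These calls were lost in 9 and 6 of 18 alternatives, among them upper quartile scaling (edgeR adjusted p = 0.0692 and 0.0509) and leaving out WT VEH mouse C (0.0821 and 0.0712) or mouse D (0.281 and 0.238). Rdh5 was not called in any of the 4 comparisons but passed in the interaction (-0.56, SE 0.196, edgeR adjusted p = 0.0319), a call lost in 5 of 17 alternatives.

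Among receptor partners and coregulators, Ncor1, Ncoa1 and Ncoa2 were called in the directions opposite to those of Rarg in all 4 comparisons, while others were called in 1 or 2 comparisons or in none. Of the 3 retinoid X receptors, Rxrg was downregulated in CD VEH versus WT VEH (-0.24 on the log2 scale, SE 0.0746, edgeR adjusted p = 0.0339) and in WT JZL184 versus WT VEH (-0.25, edgeR adjusted p = 0.0279), Rxra was upregulated in CD JZL184 versus CD VEH (0.23, edgeR adjusted p = 0.0285), and Rxrb was not called. These calls of Rxrg were lost in 6 and 5 of 18 alternatives and that of Rxra in 5 of 18, upper quartile scaling among them each time (edgeR adjusted p = 0.0646, 0.0510 and 0.0511), and both calls of Rxrg without either WT VEH mouse. Of 5 coregulators, the corepressor Ncor1 and the coactivators Ncoa1 and Ncoa2 were all downregulated in CD VEH versus WT VEH. All of these were upregulated in CD JZL184 versus CD VEH. In the directions of these coregulators, 14.0% to 18.2% of all genes were called in the 4 comparisons. Ncoa1 had 28.6 ± 3.45 CPM in WT VEH (SD, n = 2), 20.4 ± 0.823 in WT JZL184, 20.3 ± 1.08 in CD VEH and 29.9 ± 3.01 in CD JZL184 (SD, n = 3 each). Its log2 fold change was -0.50 in CD VEH versus WT VEH (SE 0.0951, edgeR adjusted p = 0.00509) and 0.56 in CD JZL184 versus CD VEH (SE 0.0858, edgeR adjusted p = 0.00235). Without WT VEH mouse C the calls in CD VEH versus WT VEH were lost for Ncoa1 (edgeR adjusted p = 0.0679) and Ncor1 (0.0945), and those in WT JZL184 versus WT VEH for Ncoa1 (0.0717), Ncoa2 (0.0623) and Ncor1 (0.109). The latter call of Ncor1 was also lost without WT VEH mouse D (0.0544) and in a fit of the compared groups alone (0.0709). Ncoa3 was called in 1 comparison, CD JZL184 versus WT JZL184, and there it was downregulated like Rarg (-0.22, edgeR adjusted p = 0.0249), a call lost in 3 of 18 alternatives. Nrip1 was not called.

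**Figure D3:**
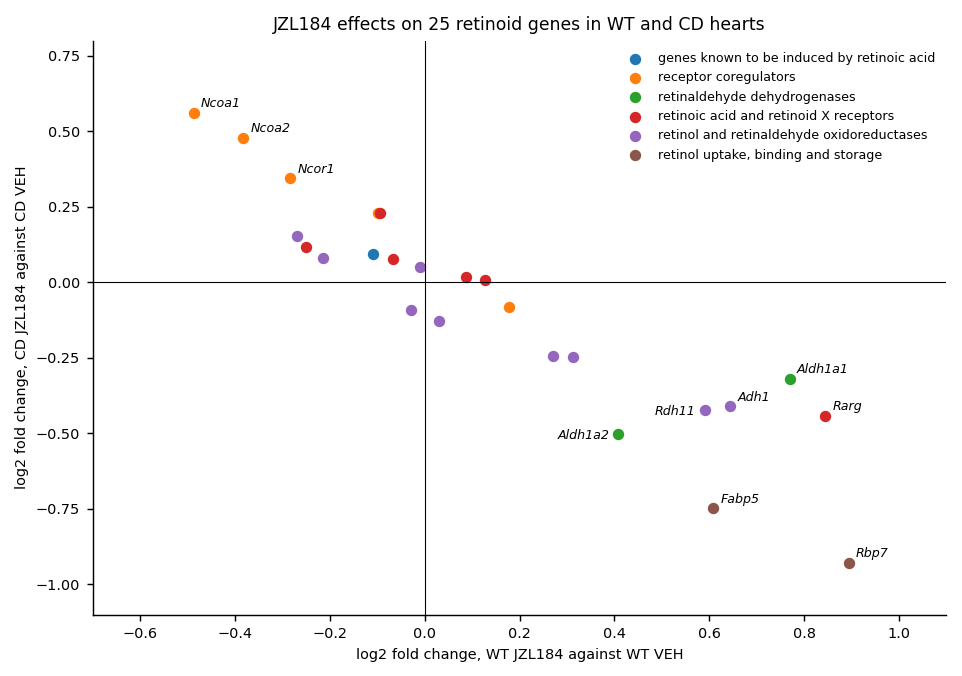
Log2 fold change of the 25 tested retinoid genes for JZL184 in WT (horizontal) and in CD hearts (vertical), coloured by gene list, with 1 point per gene. Of these genes, 22 (88.0%) lie in the quadrants of opposite sign, where 83.1% of all genes lie, with carriers such as Rbp7 (0.89 in WT, -0.93 in CD) at the lower right and coregulators such as Ncoa1 (-0.49 in WT, 0.56 in CD) at the upper left.

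Genes known to be induced by retinoic acid were mostly below the expression limit. Of 13 such genes, 4 were tested besides Cyp26b1. With edgeR, 0 were called in CD VEH versus WT VEH and 0 in WT JZL184 versus WT VEH, where 0 and 1 (Dhrs3) were higher at an unadjusted p under 0.05 and with DESeq2. Dhrs3 alone was called, as downregulated, in the 2 comparisons of CD JZL184 hearts. Of all genes, 14.0% to 20.1% were called in each direction of the 4 comparisons, a background close to these small counts. Tgm2, a transglutaminase with 178 to 224 CPM, had log2 fold changes between -0.16 and 0.09 in the 4 comparisons (edgeR adjusted p between 0.176 and 0.663). Crabp2 had at most 0.0306 CPM. Below the limit and untested, Hoxa5 (7 to 40 counts) had 0.0869 to 0.116 CPM in WT VEH and 0.281 to 0.417 in WT JZL184. It had 0.349 to 0.470 CPM in CD VEH and 0.194 to 0.222 in CD JZL184 hearts. Hoxb1 (0 to 14 counts) went the other way in WT VEH hearts, with 0.101 to 0.112 CPM. It had 0 to 0.0808 CPM in WT JZL184, 0.0245 to 0.0723 in CD VEH and 0.0690 to 0.164 in CD JZL184 hearts.

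Dhrs3 was the gene whose levels across hearts were most like those of Cyp26b1. Likeness was taken as Pearson's r of log2 CPM over the 11 mice, as a description, since hearts share group, library depth and scaling. Among 11318 genes Dhrs3 ranked first with r = 0.92, and it also ranked first by Spearman's rho (0.91). Without CD VEH mouse C, which has the highest Cyp26b1, r was 0.96 over 10 mice and the rank was 2. After subtraction of the group means r was 0.86, with a rank of 41. Dhrs3 was picked by its r in the same hearts, and Cyp26b1 in part by its spread among CD VEH mice. This value is therefore a description and no separate support. The 10 genes of highest r over the 11 mice, Dhrs3 included, had r from 0.62 to 0.86 after this subtraction. Dhrs3 had its highest heart in the same mouse as Cyp26b1 in all 4 groups, as did 293 genes (2.59%), a pattern noticed after the values were seen.

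**Figure D4:**
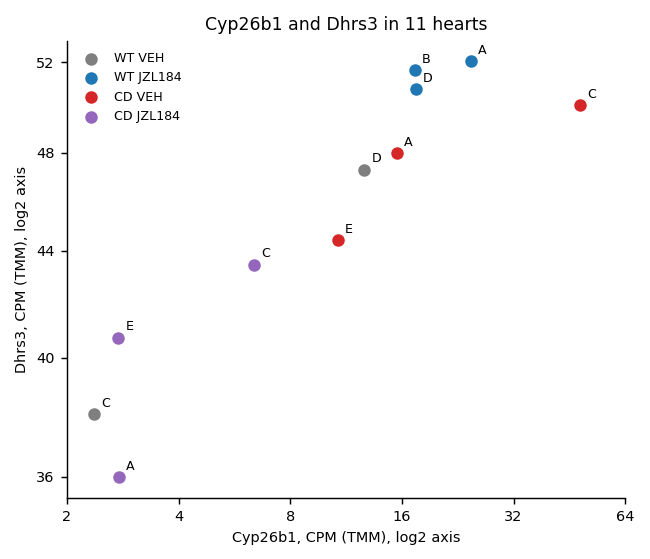
Dhrs3 (vertical) against Cyp26b1 (horizontal) in CPM on log2 axes, with 1 point per heart, coloured by group and lettered by mouse. Hearts with more Cyp26b1 mostly have more Dhrs3, as WT JZL184 mouse A (24.6 CPM of Cyp26b1, 52.0 of Dhrs3) and CD JZL184 mouse A (2.76 and 36.0), with CD VEH mouse C to the right of the others at 48.3 and 50.1 and with Dhrs3 between 36.0 and 40.7 CPM in the 3 hearts of lowest Cyp26b1.

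The other members were less like Cyp26b1, with r = 0.84 for Rarg (rank 32), 0.69 for Aldh1a1 (rank 722), 0.43 for Aldh1a2, 0.11 for Rarb, -0.06 for Rdh10 and -0.10 for Rara. After Dhrs3, the genes with the highest r were Washc3, Ccdc124, Abt1, Nptn, Cd38, Ercc1, Copz1, Tinagl1 and Gstm5, from 0.91 down to 0.87. Of these 10 genes, 1 remained among the top 10 by Spearman's rho and 3 without CD VEH mouse C, so most of these places depended on the measure or on a single heart. After subtraction of group means the top 5 were Dynll2, Rrp1, Crat, Mdm1 and Cacfd1 (r from 0.98 to 0.93), none of them in the first list. Ncoa1 was near the other end of the order with r = -0.87 (rank 11309).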

How the data were processed

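RNA-seq of 11 hearts was used. The table that the authors deposited holds estimated counts by gene, quantified by them with Salmon 0.7.2 against Ensembl GRCm38 transcripts and summarized with tximport, not normalized. Their own tests used DESeq2. For the comparisons given here the values were rounded and fitted with the quasi-likelihood model of edgeR 4.0.16 (R 4.3.3, limma 3.58.1, TMM factors, all 4 groups in 1 model). The fit covered 11319 genes whose average log2 CPM reached 1, and p-values were adjusted over all of them (Benjamini-Hochberg). The common biological coefficient of variation came to 9.13%. Of 22608 identifiers, 22238 matched GENCODE M21, which gave positions and exon lengths. CPM values use TMM library sizes, and the log2 CPM of likeness and spread has a prior count of 2.

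Column names give the group and a letter that no sample label carries. Columns were therefore assigned to groups, not to single samples, and 0 columns had no group. The sources call the mice biological replicates. The 9 genes, the lists and the markers were chosen with earlier results of these data known. Named are the 9 genes, the called genes of each list (at most 4 per list and comparison by adjusted p), the 10 genes most like Cyp26b1 and the 5 most like it within groups. Other genes were named after their values were seen. Some genes of the lists are not reported here and were left out of the counts over lists.

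Alternatives were DESeq2 1.42.0, RLE and upper quartile scaling, no expression filter or a minimum of 10 counts per mouse, a model of the compared groups alone, library sizes without mitochondrial genes, a threshold of 0.01 and omission of each mouse in turn. Both tools were also run on simulated counts for CD VEH versus WT VEH, in which 200 of 11281 genes were altered. Each found 98.5% of the altered genes, and 3.90% (edgeR) and 10.0% (DESeq2) of their calls were false. The median size of the simulated differences was 0.99 on the log2 scale (edgeR). Aldh1a1 and Rarg, called in this comparison, had 0.44 and 0.67, and 3440 of 11319 genes were called in the hearts. Rates for smaller differences or for more altered genes were not tested. Limits from 3 counts cover counting error only. Promoters are from RefSeq (GRCm38.p6).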

Additional observations from a re-analysis of the deposited data

Results flagged for a closer look

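The effect of JZL184 in CD mice differed from that in WT mice for 14 tested retinoid genes, by the interaction term of the edgeR model. Given as the log2 effect in CD minus that in WT, it was -1.09 for Aldh1a1, -0.91 for Aldh1a2, -0.52 for Dhrs3 and -1.29 for Rarg among the 9 genes. Among the genes of the wider lists it was negative for Rbp7 (-1.82), Fabp5 (-1.36), Rdh11 (-1.01) and Rdh5 (-0.56). It was positive for Ncoa1 (1.05), Ncoa2 (0.86), Ncor1 (0.63), Dhrs4 (0.42), Rxrg (0.37) and Rxra (0.32). The call of Rxra was lost in 6 of 17 alternatives, with edgeR adjusted p between 0.0505 without WT VEH mouse C and 0.0845 without WT VEH mouse D, that of Rdh5 in 5, that of Aldh1a2 in 4 and that of Dhrs4 in 1, without WT VEH mouse D (0.0541). Of all 11319 genes, 5828 passed this test.

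For Cyp26b1 the same difference was -4.01. Every CD JZL184 heart was below every CD VEH heart and every WT JZL184 heart was above both WT VEH hearts. This difference was not tested, because the gene was chosen by its values in these comparisons.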

How the results depend on the processing

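No paired analysis was possible because no replicate number of the labels could be tied to a column of the count table. Some column letters recur between groups, but no source ties a letter to a shared litter, batch or day, and a block on the letters was not fitted. The 4 genes called in CD JZL184 versus WT JZL184 stayed called in all alternatives at the 0.05 threshold. At an adjusted p under 0.01, the number of the 7 genes called fell to 1 in CD VEH versus WT VEH and to 0 in CD JZL184 versus CD VEH, and that of the 25 genes of the wider lists to 5 in these comparisons and to 5 in WT JZL184 versus WT VEH. At that threshold 10.2%, 13.7% and 9.74% of all genes were called in these 3 comparisons. Leaving out each mouse gave 0 to 2 called genes of the 7 in CD VEH versus WT VEH and 1 to 3 in CD JZL184 versus CD VEH, while the share of all genes called ranged from 3.40% to 37.0% and from 18.0% to 41.0%. For the wider lists it gave 1 to 12 in CD VEH versus WT VEH, 7 to 10 in CD JZL184 versus CD VEH and 3 to 12 in WT JZL184 versus WT VEH (4.93% to 39.6% of all genes), with the lowest numbers without WT VEH mouse C in the comparisons with WT VEH. The cause was not tested, but a group of 2 mice leaves 1 when a mouse is removed, which is then assumed to vary like the other groups.

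Signs changed only for differences that were not called. With upper quartile scaling, the log2 fold change of Rdh10 came to 0.0086 in CD VEH versus WT VEH, 0.031 in WT JZL184 versus WT VEH, -0.00080 in CD JZL184 versus WT JZL184 and -0.0094 in the interaction, and that of Rara was -0.0093 in CD JZL184 versus CD VEH. With only the compared groups, Rdh10 had 0.0081 in WT JZL184 versus WT VEH. Leaving out each mouse in turn, Rdh10 ranged from -0.084 to 0.0063 in CD VEH versus WT VEH, from -0.019 to 0.12 in CD JZL184 versus CD VEH, from -0.049 to 0.031 in WT JZL184 versus WT VEH, from -0.043 to 0.096 in CD JZL184 versus WT JZL184 and from -0.0090 to 0.13 in the interaction. Rarb ranged from -0.013 to 0.18, -0.20 to 0.080, -0.12 to 0.093 and -0.0016 to 0.28 in the last 4 of these, Rara from -0.077 to 0.11 in CD JZL184 versus CD VEH and from -0.17 to 0.024 in the interaction, and in CD VEH versus WT VEH Aldh1a2 ranged from -0.23 to 0.13 and Ncoa3 from -0.039 to 0.12.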

Other observations

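Some genes of the wider lists, named after their values were seen, were uneven between hearts. Lrat, which esterifies retinol for storage and was below the expression limit, had 0.337 to 1.54 CPM in CD VEH hearts, against 0.208 to 0.335 CPM in WT hearts of both treatments and 0.246 to 0.581 CPM in CD JZL184 hearts. Adh1, an alcohol dehydrogenase that can oxidize retinol, had 7.45 to 18.9 CPM in WT JZL184 hearts and 6.08 to 10.1 CPM in all other hearts, and passed no test (log2 fold change 0.64 in WT JZL184 versus WT VEH, SE 0.315, edgeR adjusted p = 0.139). Aldh1a3, a further retinaldehyde dehydrogenase, had 0.807 to 1.70 CPM over the 11 hearts.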
